A study of Mus musculus with 8 samples.

Results

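The genes described here carry carbon from pyruvate into the tricarboxylic acid (TCA) cycle, run the cycle, and refill it. They were taken from a list of 35 gene symbols, and 28 of these were measured, each by the single probe set that the array's annotation gives to that symbol alone. Pyruvate made by glycolysis enters the mitochondrion through a carrier and is converted to acetyl-CoA by the pyruvate dehydrogenase complex, which is switched off by a family of kinases that phosphorylate its first enzyme and switched on again by phosphatases. Acetyl-CoA is then oxidised by the TCA cycle, whose intermediates also leave to make amino acids and other products. Carboxylases, aminotransferases and malic enzymes link the cycle to pyruvate, glutamate and aspartate, a traffic called anaplerosis when it adds intermediates. In skeletal muscle these reactions supply much of the reducing power for respiration, and their transcripts are known to be abundant in oxidative fibres. The other 7 symbols, namely the carrier subunits Mpc1 and Mpc2, the phosphatase Pdp1, the succinyl-CoA ligase subunit Suclg2, Me1, Mdh1 and Got2, had no such probe set and were not analysed here.

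The arrays measured RNA of a fast shin muscle, the tibialis anterior, taken from male mice aged 8 weeks in which, per the labels, ATF4, a stress-responsive transcription factor, had been deleted in skeletal muscle. The control group held 4 arrays of left muscles transfected with the empty plasmid pcDNA3, and the Gadd45a group held 4 arrays of right muscles transfected with pCMV-FLAG-Gadd45a, which encodes a tagged form of the nuclear stress protein Gadd45a. The labels place the harvest 7 days after transfection and name neither the promoter that drove the deletion nor the share of fibres that took up plasmid. Both groups carry the label of the muscle ATF4 deletion, and side and plasmid coincide. The control plasmid has no inserted gene, and the labels give the plasmids different names. Gadd45a, the leg used, the plasmid backbone and the making of any inserted protein therefore cannot be told apart as sources of a difference. Nothing in the labels ties the arrays of a group to separate animals, so each p-value is set by array-to-array spread, part of which may be technical. The comparison asks which of these transcripts differ once Gadd45a is supplied to muscle labelled as lacking ATF4.

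Values are log2 intensities, so a difference of -1 is a halving of signal, and the level of a gene is never set against that of another because probe sets differ in brightness. A gene was called lower or higher where limma's adjusted p, taken over all 16755 probe sets, was under 0.05. Gadd45a itself read 7.66 to 7.85 with control plasmid and 10.18 to 10.46 with Gadd45a plasmid, as the labels say. The probe set of Atf4, the gene labelled as deleted, gave a signal in both groups, of 6.84 to 7.03 with control plasmid and 7.35 to 7.59 with Gadd45a plasmid, and was called higher by 0.54 (SE 0.08, adjusted p = 0.00136). The groups did not overlap. Neither the position of this probe set relative to the deleted part of the gene nor the cells that gave the signal is known here, and no array of mice without the deletion was used here, so the reading does not check the deletion. The part of the Atf4 signal in the changes of the pathway was not tested. Of the fibre markers, Ckm (muscle creatine kinase) changed by -0.51 (adjusted p = 0.00142) and Acta1 (skeletal actin) by -0.07 (adjusted p = 0.437). Correlations over all probe sets ran from 0.979 to 0.989 within the groups and from 0.963 to 0.975 between them.

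The stretches of 150 bases just before the start of transcription are shown for the kinases Pdk2 and Pdk4, which fell, and Pdk3, which rose. Stretches are also shown for 2 cycle genes that fell and hold a searched motif, Sucla2 and Mdh2. A link between these sequences and the changes was not tested. The sequences are those of RefSeq for GRCm38.p6, on the strand of the gene. Capitals mark a match to a searched motif. They are chr11:95041372-95041521 on the minus strand for Pdk2 (the start with a match), chrX:93832151-93832300 minus for Pdk3, chr6:5496279-5496428 minus for Pdk4, chr14:73552636-73552785 plus for Sucla2 and chr5:135778499-135778648 plus for Mdh2.
Pdk2: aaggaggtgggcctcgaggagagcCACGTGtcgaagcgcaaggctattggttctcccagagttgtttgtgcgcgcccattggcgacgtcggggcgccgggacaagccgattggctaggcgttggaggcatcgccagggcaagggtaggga
Pdk3: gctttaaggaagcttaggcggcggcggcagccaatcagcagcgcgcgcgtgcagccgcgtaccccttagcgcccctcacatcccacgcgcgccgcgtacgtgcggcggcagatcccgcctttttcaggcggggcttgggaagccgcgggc
Pdk4: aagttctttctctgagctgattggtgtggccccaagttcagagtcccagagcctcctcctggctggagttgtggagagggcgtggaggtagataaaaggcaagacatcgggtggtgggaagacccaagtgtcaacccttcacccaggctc
Sucla2: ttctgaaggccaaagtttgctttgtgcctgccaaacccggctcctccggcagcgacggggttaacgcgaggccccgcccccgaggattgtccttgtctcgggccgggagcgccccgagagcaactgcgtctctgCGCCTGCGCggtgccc
Mdh2: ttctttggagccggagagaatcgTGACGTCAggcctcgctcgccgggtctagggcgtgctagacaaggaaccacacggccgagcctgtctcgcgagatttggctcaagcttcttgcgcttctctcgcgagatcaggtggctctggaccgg

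The Pdk2 stretch holds the E box CACGTG, the Sucla2 stretch a match to the NRF1 motif GCGCANGCG, and the Mdh2 stretch the cyclic AMP response element TGACGTCA. No searched motif lies in the Pdk3 or Pdk4 stretch, nor in that of the other listed start of Pdk2, which is not shown. The Pdk2 start shown, Sucla2 and Mdh2 were picked for holding a match. The Pdk3 stretch is richest in G and C of these 5, at 70.7% with 22 CG pairs, and the Pdk4 stretch has 56.0% and 2 CG pairs. The median over the same stretch of all promoters was 54.0%. Promoters of 250 bases before to 50 after the start were listed for 26 of the 28 measured genes, 35 promoters in all. On both strands, CACGTG was present for 3 genes (Ogdh, Pcx and Pdk2), TGACGTCA for 2 (Mdh2 and Ogdh), GCGCANGCG for 3 (Dld, Ogdh and Sucla2), and AAGGTCA, the half-site of the estrogen-related receptors, for 2 (Got1 and Ogdh). Among all 32851 listed promoters the shares were 7.15% for CACGTG, 1.79% for TGACGTCA, 6.25% for GCGCANGCG and 4.72% for AAGGTCA. These are shares of promoters, not of genes. Counted the same way, 5 of the 35 promoters held CACGTG, 4 TGACGTCA, 4 GCGCANGCG and 2 AAGGTCA. Ogdh has 6 listed starts, some of which overlap, and so had more chances to match than the rest.

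Transcripts of pyruvate oxidation and the TCA cycle were lower with Gadd45a plasmid. Of the 28 genes 16 were lower and 2 higher, and 10 were not called. Over all probe sets 21.1% were called, 10.3% lower and 10.8% higher. The median log2 fold change was -0.30 over the 28 genes, against -0.065 over all probe sets. In 20 of the 28 the groups did not overlap, 18 lower and 2 higher, where 13.8% of all probe sets were lower and 13.1% higher without overlap. Most of these probe sets were bright. When the test was confined to the brighter part of the array, 19 of 27 genes were lower, against 16.9% of the 8378 probe sets tested there. The list was chosen with earlier results of these data known, so these counts describe it and do not test it.

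**Figure D1:**
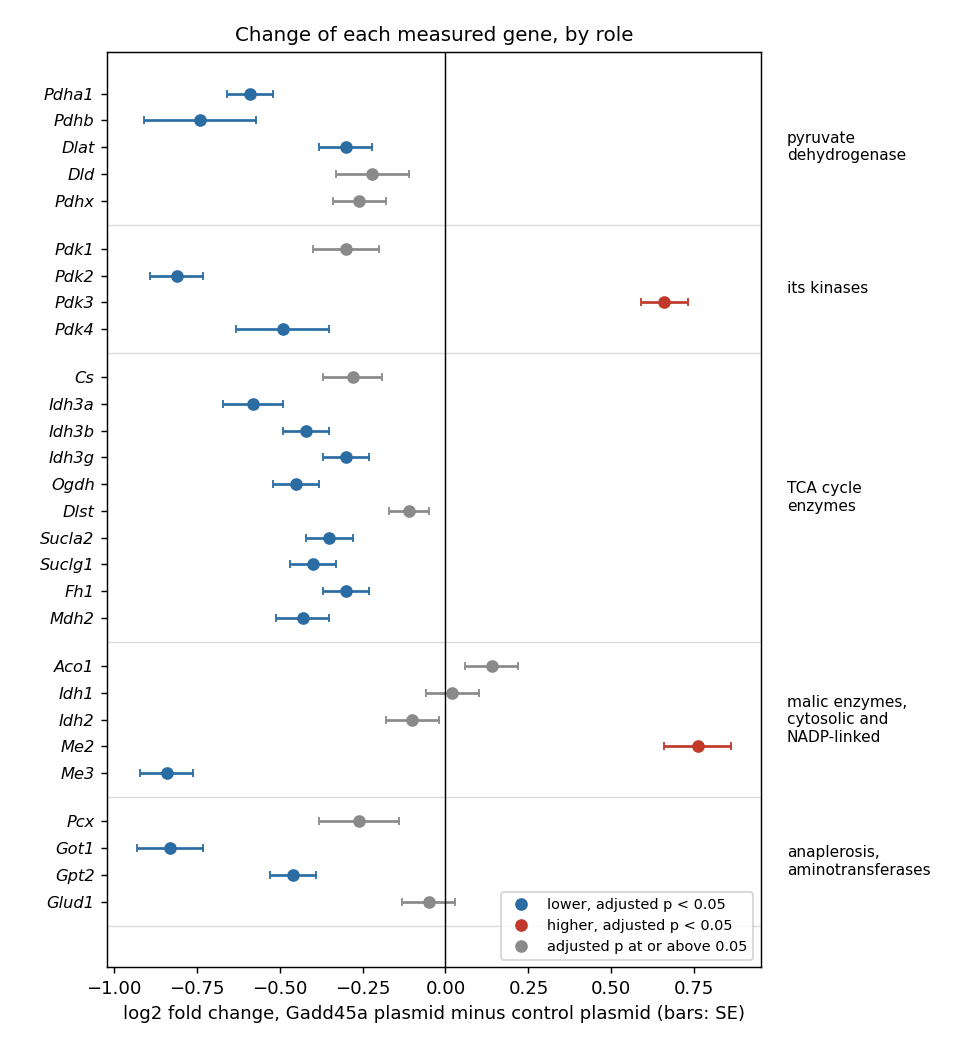
Log2 fold change of each of the 28 measured genes (x axis, log2 units, Gadd45a plasmid minus control plasmid; bars, SE of limma's fit), grouped by role and coloured by whether the adjusted p was under 0.05. Points lie left of 0 for 24 genes, and Pdk3 and Me2 are the called genes on the right.

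The 3 largest decreases were in the malic enzyme Me3 (-0.84), the aminotransferase Got1 (-0.83) and the kinase Pdk2 (-0.81), each to between 55.8% and 57.1% of the control signal. The increases were in the malic enzyme Me2 (0.76) and the kinase Pdk3 (0.66). The mitochondrial malic enzymes and the kinases thus each had a member that rose and a member that fell.

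Within the pyruvate dehydrogenase complex 3 of 5 subunits fell. Pdha1, the alpha subunit of the enzyme that decarboxylates pyruvate and the target of the kinases, read 9.67, 9.77, 9.79 and 9.75 log2 units on control arrays 1 to 4. On Gadd45a arrays 1 to 4 it read 9.13, 9.08, 9.21 and 9.20. The groups lay well apart, and the change was -0.59 (SE 0.07, adjusted p = 0.000347 with limma). Pdhb, the beta subunit of the same enzyme, read 7.13, 7.40, 7.57 and 7.11 with control plasmid and 6.29, 6.70, 6.29 and 6.95 with Gadd45a plasmid. Its groups did not overlap but were scattered, with Gadd45a arrays 2 and 4 above arrays 1 and 3, and the change was -0.74 (SE 0.17, adjusted p = 0.0124). That call was lost without the arrays numbered 2 (0.0553) or those numbered 3 (0.0683).

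The other subunits had estimates between -0.30 and -0.22. Dlat, the acetyltransferase core, fell by 0.30 (SE 0.08, adjusted p = 0.0213), from 8.02 ± 0.09 to 7.72 ± 0.09 (SD, n = 4 each). Its call was lost without control 2 (0.0568), without Gadd45a 4 (0.0588) and without any same-numbered pair (0.0505 to 0.0924). Pdhx, which tethers the last enzyme to that core, read 7.88 ± 0.10 and 7.62 ± 0.11 (SD, n = 4 each), a difference of -0.26 with groups that did not overlap and an adjusted p of 0.0511 from limma. Dld, the dihydrolipoamide dehydrogenase that this complex shares with its relatives, read 10.06, 10.51, 10.46 and 10.15 on the control arrays and 10.10, 10.15, 10.10 and 9.94 on the Gadd45a arrays. The groups overlapped, since control 1 lay below 3 of the 4 Gadd45a arrays, and the difference of -0.22 did not pass (SE 0.11, adjusted p = 0.186). On each array the log2 difference of Pdha1 and Dld was compared between the groups, and Pdha1 had changed by 0.37 more downward (-0.37; SD 0.18 and 0.14). The exact two-sided permutation test over 70 labellings gave p = 0.0571, or 0.0857 adjusted over the 4 pairs of genes tested. Those pairs were listed with earlier results of these data known. Even the smallest p that 70 labellings allow, if reached by a single pair alone, would stay above 0.05 after this adjustment. A miss therefore does not show that both genes changed equally.

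The kinases that inactivate the complex did not move as a family. Pdk2, a kinase abundant in muscle (probe set 6791015), read 8.06, 8.20, 8.18 and 8.27 on the control arrays. It read 7.44, 7.31, 7.46 and 7.27 on the Gadd45a arrays, well below every control value. The change was -0.81 (SE 0.08, adjusted p = 0.00015), a 1.75-fold lower signal. Pdk3, a kinase better known from testis and other tissues (probe set 7018225), read 5.76, 5.78, 5.92 and 5.79 with control plasmid and 6.39, 6.43, 6.58 and 6.50 with Gadd45a plasmid. The Gadd45a arrays were all higher, by 0.66 (SE 0.07, adjusted p = 0.000295) or 1.59-fold. The calls of Pdk2 and Pdk3 held in 12 of 12 fits on fewer arrays, without any 1 array or any same-numbered pair.

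Pdk4, the kinase induced by fasting and fatty acids, read 9.66, 9.49, 9.39 and 9.81 on the control arrays and 9.37, 8.77, 9.17 and 9.10 on the Gadd45a arrays. The highest Gadd45a array lay just below the lowest control array, and the change was -0.49 (SE 0.14, adjusted p = 0.0318). This call rested on most of the arrays at once. It was lost without control 1 (0.0719), control 4 (0.0739), Gadd45a 2 (0.0645), Gadd45a 3 (0.0545) or Gadd45a 4 (0.0705), and without any same-numbered pair (0.0505 to 0.135). The difference of Pdk4 and Pdk2 had risen by 0.32 (SD 0.19 and 0.20), which did not pass the exact permutation test (p = 0.0857, also 0.0857 adjusted over the 4 pairs). Pdk1, the kinase known to be induced by low oxygen, read 6.28 ± 0.20 and 5.98 ± 0.04 (SD, n = 4 each), a difference of -0.30 that missed the threshold (adjusted p = 0.0575) with overlapping groups. Pdk1 passed without control 1 (-0.39, adjusted p = 0.0132), the control array with its lowest reading.

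**Figure D2:**
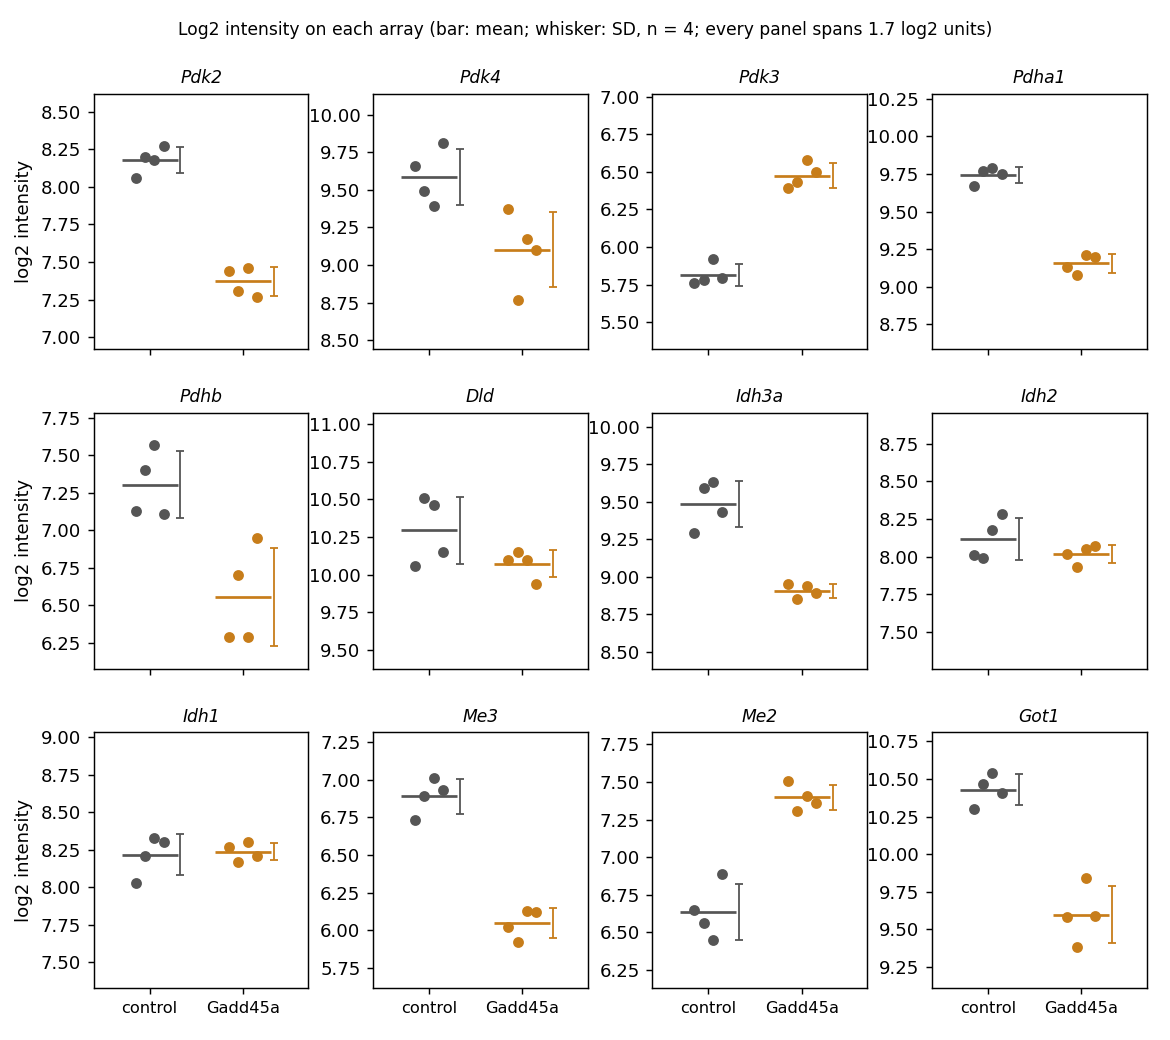
Log2 intensity (y axis) of 12 genes on each control and Gadd45a array, with the mean as a bar and the SD as a whisker (n = 4), in panels of equal span. The groups are separate for Pdk2, Pdk3, Pdk4, Pdha1, Pdhb, Idh3a, Me2, Me3 and Got1, and overlap for Dld, Idh1 and Idh2.

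Of the 10 measured TCA cycle enzymes 8 fell and 0 rose, and all 10 estimates were below 0, from -0.58 to -0.11. The subunits of the NAD-linked isocitrate dehydrogenase, which sets the pace of the early cycle, fell together. Idh3a, its catalytic subunit, read 9.29, 9.59, 9.63 and 9.43 on the control arrays. On the Gadd45a arrays it read 8.95, 8.85, 8.94 and 8.89, a narrow range below all controls. The change was -0.58 (SE 0.09, adjusted p = 0.00152). Idh3b fell by 0.42 (SE 0.07, adjusted p = 0.00361) and the regulatory subunit Idh3g by 0.30 (SE 0.07, adjusted p = 0.012). The call of Idh3g was lost without the arrays numbered 2 (0.0771) or those numbered 3 (0.0536). The change of Idh3a was 0.28 further down than that of Idh3g (-0.28, SD 0.11 and 0.08). This pair was added after its values were seen and was not tested. The tested pairs, too, were listed with earlier results of these data known.

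The next enzymes of the cycle were lower as well. Ogdh, the decarboxylating subunit of the oxoglutarate dehydrogenase complex, read 9.33 ± 0.07 and 8.88 ± 0.09 (SD, n = 4 each) and fell by 0.45 (SE 0.07, adjusted p = 0.00242). Dlst, the succinyltransferase core of that complex, read 8.68 ± 0.05 and 8.58 ± 0.03 (SD, n = 4 each). Its groups did not overlap, but the difference of -0.11 was not called (adjusted p = 0.243). The change of Ogdh less that of Dlst was -0.35 (SD 0.06 and 0.08), again chosen after the values were seen and not tested.

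Succinyl-CoA ligase, which makes a nucleotide triphosphate in the cycle, was lower in both measured subunits. The alpha subunit Suclg1 went from 9.38 ± 0.09 to 8.98 ± 0.07 (SD, n = 4 each; -0.40, adjusted p = 0.00409) and the ATP-forming beta subunit Sucla2 from 10.15 ± 0.12 to 9.80 ± 0.04 (SD, n = 4 each; -0.35, adjusted p = 0.0102). The fumarase Fh1 fell by 0.30 (SE 0.07, adjusted p = 0.0158) and the mitochondrial malate dehydrogenase Mdh2, which closes the cycle, by 0.43 (SE 0.08, adjusted p = 0.00412). Sucla2 lost its call without the arrays numbered 2 (0.0703) or 3 (0.0509), and Fh1 without those numbered 1 (0.0606), 2 (0.0929) or 4 (0.0552). Citrate synthase, Cs, the enzyme often assayed as a measure of mitochondrial content, read 9.60, 10.00, 9.94 and 9.90 with control plasmid and 9.51, 9.60, 9.60 and 9.59 with Gadd45a plasmid. Control 1 lay level with the Gadd45a arrays and the other 3 controls above them, and the difference of -0.28 was not called (adjusted p = 0.055). Cs passed without control 1 (-0.37, adjusted p = 0.00651).

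The isocitrate dehydrogenases that use NADP were not called. Idh2, the mitochondrial isocitrate dehydrogenase that makes NADPH, read 8.01, 7.99, 8.18 and 8.28 on the control arrays and 8.02, 7.93, 8.05 and 8.07 on the Gadd45a arrays. Idh1, its cytosolic relative, read 8.03, 8.21, 8.33 and 8.30 on the control arrays and 8.27, 8.17, 8.30 and 8.21 on the Gadd45a arrays. In both genes the groups overlapped, with differences of -0.10 (SE 0.08, adjusted p = 0.418) for Idh2 and 0.02 (SE 0.08, adjusted p = 0.88) for Idh1. The sign of Idh1 turned under some settings, to between -0.0075 and -0.03 with array weights, cyclic loess and quantile normalization. Idh3a had changed by 0.48 more downward than Idh2 (-0.48; SD 0.19 and 0.05). That difference gave p = 0.0286 in the exact two-sided permutation test, the smallest that the 70 labellings allow, and 0.0857 adjusted over the 4 pairs. By itself that p could not pass 0.05 once adjusted over the 4 pairs. Idh1 less Idh2 changed by 0.12 (exact permutation p = 0.0857, adjusted 0.0857). The cytosolic aconitase Aco1, also an iron-sensing RNA-binding protein, read 6.38 ± 0.09 and 6.52 ± 0.11 (SD, n = 4 each; adjusted p = 0.233 with limma).

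The mitochondrial malic enzymes, which turn malate into pyruvate, moved apart. Me3, which uses NADP (probe set 6962467), read 6.73, 6.89, 7.01 and 6.93 on the control arrays and 6.02, 5.92, 6.13 and 6.12 on the Gadd45a arrays. The highest Gadd45a array was far below the lowest control, and the change was -0.84 (SE 0.08, adjusted p = 0.000199). Me2, which prefers NAD (probe set 6866643), read 6.65, 6.56, 6.45 and 6.89 with control plasmid and 7.51, 7.31, 7.41 and 7.36 with Gadd45a plasmid. Here every Gadd45a array was above every control, by 0.76 on average (SE 0.10, adjusted p = 0.000777), a 1.69-fold higher signal. The difference of Me2 and Me3 rose by 1.60 (SD 0.24 and 0.12), and that of Pdk3 and Pdk2 by 1.47 (SD 0.10 and 0.12). These pairs were chosen after their opposite changes had been seen and are given as a description.

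Among the genes that refill the cycle, the aminotransferases Got1 and Gpt2 fell, while Gpt, the other alanine aminotransferase, was not called (-0.10, adjusted p = 0.399) with overlapping groups. Got1, the cytosolic aspartate aminotransferase of the malate-aspartate shuttle, read 10.30, 10.47, 10.54 and 10.41 on the control arrays. It read 9.58, 9.38, 9.84 and 9.59 on the Gadd45a arrays, below all controls. The change was -0.83 (SE 0.10, adjusted p = 0.000596), a 1.78-fold lower signal. The mitochondrial alanine aminotransferase Gpt2, which links pyruvate and glutamate, went from 7.11 ± 0.10 to 6.65 ± 0.07 (SD, n = 4 each; -0.46, adjusted p = 0.00241). The glutamate dehydrogenase Glud1 read 7.84 ± 0.10 and 7.79 ± 0.08 (SD, n = 4 each), a difference of -0.05 (adjusted p = 0.649). Pcx, the pyruvate carboxylase that makes oxaloacetate, had the dimmest probe set of the 28 and read 5.70, 5.69, 5.19 and 5.48 with control plasmid against 5.38, 5.20, 5.18 and 5.28 with Gadd45a plasmid. The groups overlapped through control 3, and the difference of -0.26 was not called (adjusted p = 0.147). Without control 3 it was -0.36 (adjusted p = 0.0255).

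**Figure D3:**
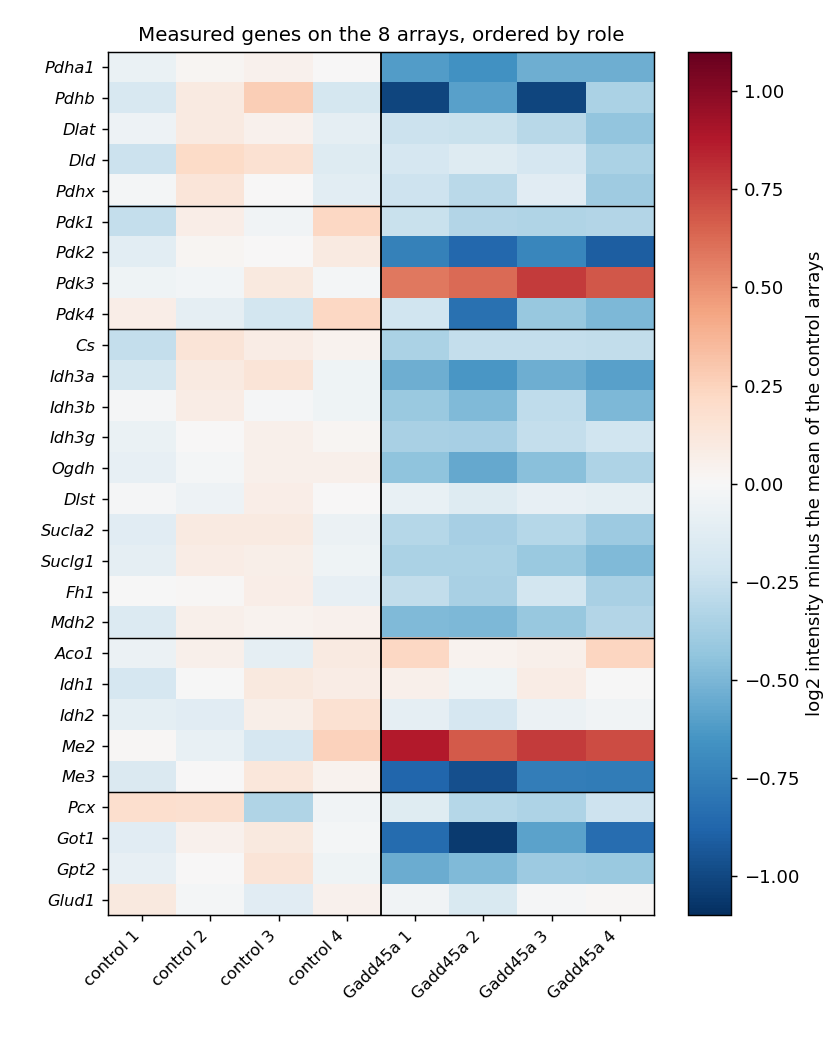
Log2 intensity of the 28 genes (rows, by role) on the 8 arrays (columns), minus the mean of the control arrays. Blue is lower and red higher, and the Gadd45a columns are blue for most rows and red for Pdk3 and Me2.

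Read array by array, the pathway was lower to a similar degree on the 4 Gadd45a arrays. The median deviation of the 28 genes from their control mean was -0.29, -0.35, -0.31 and -0.35 log2 units on Gadd45a arrays 1 to 4. On control arrays 1 to 4 it was -0.09, 0.03, 0.06 and 0.01. On each Gadd45a array 24 or 25 of the 28 genes lay below the control mean. Control 1 stood apart from its group, with 24 genes below that mean against 7 to 13 on the other controls. Without control 1 the median log2 fold change of the 28 genes was -0.38, and 17 genes were lower and 2 higher.

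Genes of the neighbouring routes included 15 lower and 2 higher of 42 measured, where 10.3% and 10.8% of all probe sets were lower and higher. Of the 5 measured genes of succinate oxidation Sdhb (-0.52), Sdha (-0.32) and Sdhd (-0.22), subunits of succinate dehydrogenase, fell. Of 5 genes that bring propionyl-CoA in as succinyl-CoA 3 fell, namely the carboxylase subunits Pcca (-0.39) and Pccb (-0.35) and the epimerase Mcee (-0.48). Of 9 other genes of pyruvate and lactate 2 fell, the lactate exporter Slc16a3 (-0.63) and Pdpr (-0.52), the regulatory subunit of the pyruvate dehydrogenase phosphatase. The glutamate and aspartate genes included both mitochondrial carriers of the malate-aspartate shuttle that muscle mainly uses. Slc25a12, the aspartate-glutamate carrier, fell by 0.74 (adjusted p = 0.000218) and Slc25a11, the oxoglutarate carrier, by 0.41 (adjusted p = 0.00184), while the asparagine synthetase Asns rose by 1.03, and 4 of the 7 measured genes there were not called.

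In the purine nucleotide cycle, which releases fumarate in working muscle, the muscle adenylosuccinate synthetase Adssl1 fell by 1.01 (SE 0.08, adjusted p = 7.74e-05) and the lyase Adsl by 0.27. Ampd3, an AMP deaminase better known from red blood cells, rose by 0.45 (adjusted p = 0.00214). Of 5 listed genes of this cycle 4 were measured, and the other listed AMP deaminase, Ampd1, was not. The synthetase Adss was not called (0.16, adjusted p = 0.244 with limma). Of 6 genes of branched-chain amino acid breakdown 3 fell, the ketoacid dehydrogenase core Dbt (-0.42), its kinase Bckdk (-0.50) and the aminotransferase Bcat2 (-0.28). The subunits of that complex that bind the ketoacid, Bckdha (-0.21, adjusted p = 0.251) and Bckdhb (-0.17, adjusted p = 0.281), were not called. Of 6 genes of citrate export, phosphoenolpyruvate synthesis and transhydrogenation 0 were called at an adjusted p under 0.05 with limma, and 0 had an unadjusted p under 0.05. The calls of Adsl and Sdhd were lost in 11 of 12 fits without an array or a pair, and those of Bcat2 and Pccb in 9 of 12. Leaving out any 1 array ended the call of Sdhd (adjusted p 0.0648 to 0.124) except Gadd45a 3, and the same held for Adsl (0.0539 to 0.0883). Median centring ended both calls as well (0.0817 for Sdhd and 0.0621 for Adsl). Bcat2 lost its call without control 1, 3 or 4 or Gadd45a 1 or 4 (0.0542 to 0.0729), and Pccb without any of these or Gadd45a 2 (0.056 to 0.0847).

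**Figure D4:**
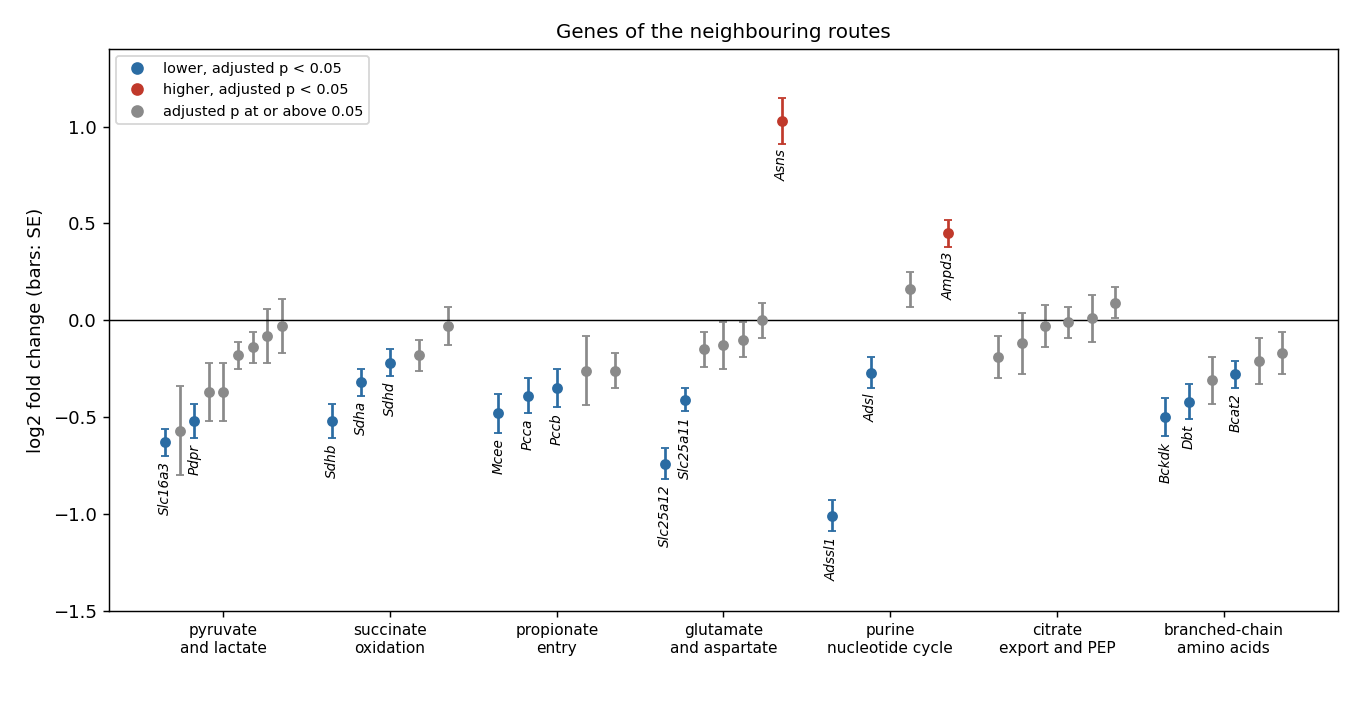
Log2 fold change (y axis, log2 units; bars, SE) of 42 genes in 7 neighbouring routes (x axis), with the called genes named. Called decreases outnumber called increases by 15 to 2, and the increases are Asns and Ampd3.

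Some markers of other cell types also differed between the groups. Over all probe sets 10.3% were lower and 10.8% higher, and in the brighter part of the array 16.9% and 22.3%. In dissected muscle fewer cells of a type and less RNA per cell cannot be told apart. The summed levels below add unlogged intensities, so the brightest probe sets of a list weigh most. The summed level of 14 macrophage markers was 12.57 to 12.66 log2 units with control plasmid and 13.18 to 13.41 with Gadd45a plasmid, and 11 of the 14 rose, among them Adgre1 and Cd68 (1.05 each). Not called were C1qb (0.45, adjusted p = 0.104), Itgam (0.10, adjusted p = 0.508) and Cd163 (-0.25, adjusted p = 0.0649). Cd163 was lower with Gadd45a plasmid, without overlap of the groups. The summed level of 11 genes listed as adipocyte markers was lower, at 9.74 to 9.78 against 10.16 to 10.35, and 6 of the 11 fell. The largest fall of that list was in the glucose transporter Slc2a4 (-0.91), which is not particular to adipocytes. Adipoq, the adipocyte hormone adiponectin, fell by 0.73, while the lipid droplet protein Plin1 read 6.37 and 6.11 (-0.26, adjusted p = 0.153). The summed level of 10 endothelial markers was 10.53 to 10.71 and 10.18 to 10.26, and 9 of the 10 fell, among them Pecam1 (-0.30) and Cdh5 (-0.38). The 7 fibre markers summed to 14.56 to 14.73 and 14.45 to 14.51, with 3 of the 7 lower. Of 8 markers of satellite cells and newly formed fibres 3 rose, with a summed level of 10.39 to 10.80 and 10.85 to 11.01, and among them the myogenic factor Myog rose by 0.99 and the fusion protein Mymk by 1.97. Pax7 (0.11), Myf5 (0.15), Myod1 (0.33), Des (0.08) and Chodl (-0.23) were not called. The probe set of Des is the brightest of that list and weighs most in its sum. Of 8 fibroblast markers 5 rose (12.02 to 12.05 and 12.04 to 12.16). Tcf7l2 (0.25), Thy1 (0.08) and Dcn (-0.19, adjusted p = 0.0563 with limma) were not called. Dcn, the brightest probe set of that list, was lower with Gadd45a plasmid, without overlap of the groups. Of 6 T cell markers 2 rose (8.87 to 9.04 and 9.0 to 9.46), and of 5 Schwann cell markers 1 fell (9.0 to 9.21 and 8.72 to 8.94). The T cell and Schwann cell counts say little beside the shares over all probe sets. The part of these cell types in the changes of the pathway was not tested, for the decreases or for the increases of Pdk3 and Me2. None of the markers read 0, since log2 intensities of this kind have no true zero.

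**Figure D5:**
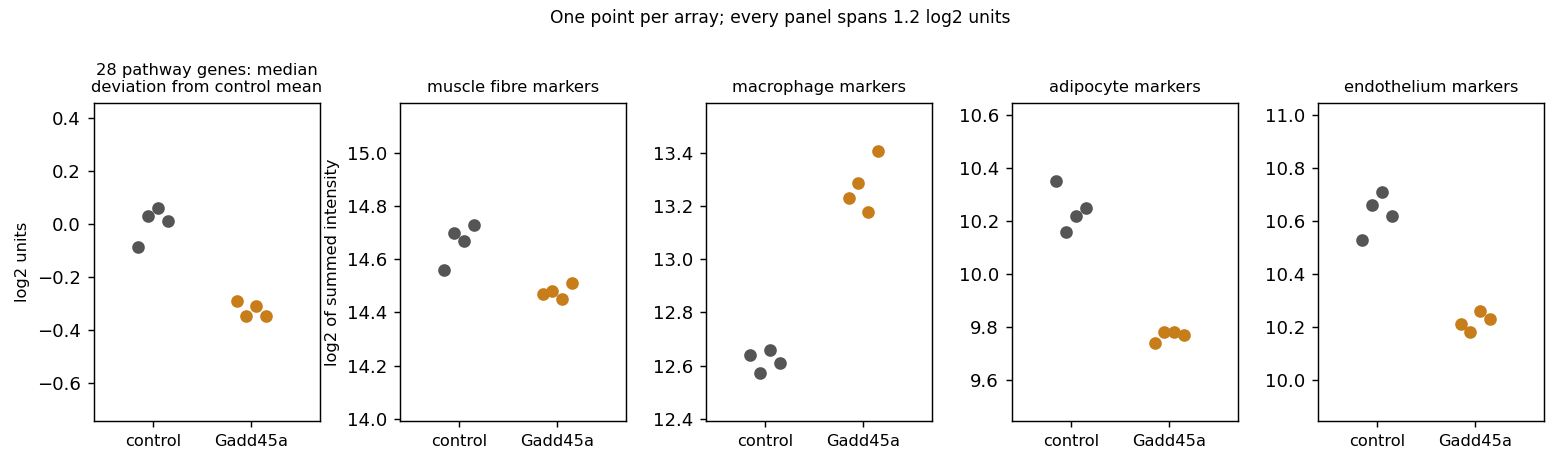
Median deviation of the 28 pathway genes from their control mean and the log2 of the summed intensity of 4 marker lists (y axes, log2 units), with 1 point per array. The Gadd45a points lie below the control points for the pathway, fibre, adipocyte and endothelial panels and above them for macrophages.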

How the data were processed

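The authors deposited log2 intensities, 1 for each of 16755 probe sets on 8 arrays. Per the labels' protocols, RNA was extracted with TRIzol, amplified and biotin-labelled with NuGEN kits, and per the submitters' processing notes GCOS, RMA and build mm9 were used, with no versions given. RMA background-corrects, quantile-normalizes and summarises probes, which compresses small changes of dim probe sets. Array precision is limited by the 4 arrays per group.

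The deposited values were tested with limma 3.58.1 in R 4.3.3 (lmFit, eBayes, two-sided, no block), with Benjamini-Hochberg adjustment over all probe sets and a threshold of 0.05. The fit was tested on simulated data. Genes were named from the 14996 probe sets with 1 symbol, with the brightest over all 8 arrays for a gene with several, though each of the 28 genes had 1. SE is the moderated standard error. Members, lists and pairs were chosen with earlier results of these data known. Values per array are given for called genes that changed by at least 0.5, genes that rose, and paired genes. Those of Cs and Pcx were added after values were seen. So were the names of Gpt, Adss, Ampd1, Bckdha, Bckdhb, Slc2a4 and the named satellite cell and fibroblast markers. The named macrophage markers other than Adgre1 and Cd68 were also added then. The pairs given without a test and the motifs (from a wider first search) were also added after values were seen. Of 9 listed pairs 5 lacked a measured partner. Other settings tried were a block for sample number, 3 normalizations, a brightness filter, 2 variance models, probe set rules, thresholds and left-out arrays.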

Additional observations from a re-analysis of the deposited data

Results flagged for a closer look

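Among 56 sets of 4 readings (28 genes in each group), 4 had a reading far from the other 3, judged by its gap to the nearest of the others as a share of the whole range, with a limit of 0.829. About 1 in 20 such sets would be marked by chance. Mdh2 on control 1 read 10.20, below the other controls, with a share of 0.896. Pdk1 on Gadd45a 1 read 6.04, above the other Gadd45a arrays (0.858), and Cs on Gadd45a 1 read 9.51, below them (0.856). Pdk3 on control 3 read 5.92, above the other controls, at 0.829 after rounding.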

How the results depend on the processing

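The count of 2 higher genes, Pdk3 and Me2, was the same under every alternative run, while the count of 16 lower genes ran from 10 to 17 when arrays or same-numbered pairs were left out and from 10 to 19 otherwise. It was 10 at an adjusted p under 0.01 and 19 at 0.1. At 0.01 the probe sets called fell from 3542 to 1630 and the lower genes of neighbouring routes from 15 to 9, since fewer pass by construction. With arrays or pairs left out, the probe sets called ran from 1876 to 3174, the lower genes of neighbouring routes from 8 to 18, and the median of the 28 genes from -0.38 to -0.28. Idh1, which was never called, changed sign with array weights (-0.0075), cyclic loess (-0.02) and quantile normalization (-0.03), and ran from -0.05 to 0.06 with arrays left out. Pdhx, at an adjusted p of 0.0511, passed in 7 of 9 other fits on all arrays, for example 0.0218 with cyclic loess. Cs passed in 5 of them and Pdk1 in 3. The labels do not say that a sample number marks an animal, and deviations of same-numbered arrays correlated by 0.045 to 0.097, although each array correlated best with its own number. With the number as a replicate block, 16 genes were lower and 2 higher, 3171 probe sets were called, and 12 genes of neighbouring routes were lower. The calls of Adsl (adjusted p = 0.0705), Sdhd (0.0805), Bcat2 (0.056) and Pccb (0.0677) were lost there. A gene of these routes not called in the main fit was called lower. The cause of these differences was not tested.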
